A study of Mus musculus with 4 samples.

Results

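Gsn, Cd2, Aldh2, Tm6sf1, Lta and Pld4 were low in germinal center (GC) B cells with heterozygous loss of both Crebbp and Kmt2d, and they are 6 of the 31053 genes in the count matrices. They were chosen by that level, since each was among the 5 genes with the lowest log2 ratio of double heterozygous (CK) over control (WT) cells in centroblasts (CB) or in centrocytes (CC). Genes entered that order with at least 100 CPM (transcript counts scaled to a common total) in WT or CK and at least 50 transcripts over both, and with the single heterozygotes on the same side of WT. Gm47283 and Gimap6 met the same criteria and are not among the genes described here. The ratios in CB and CC are therefore a description, while transitioning cells, GC B-like cells outside the deposited annotation, other B cells and T cells were not used in the choice.

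Mice received sheep red blood cells, an antigen that induces GCs, and at day 10 their splenic B220+IgD- cells were sorted and profiled by droplet-based 3' single-cell RNA sequencing. The mice were female, 8 weeks old and on the C57BL/6J background, and all carried 1 Cγ1-cre allele, which acts in B cells once they begin to transcribe the Cγ1 region. The genotypes were Cγ1cre/+ (WT), Cγ1cre/+;Crebbp fl/+ (C), Cγ1cre/+;Kmt2d fl/+ (K) and Cγ1cre/+;Crebbp fl/+;Kmt2d fl/+ (CK), so each mutant keeps an intact copy of the gene it lacks in part. Each genotype was 1 mouse and 1 library, so differences between genotypes could not be tested against the spread between animals. Counts from the 3' end do not show whether a floxed allele was deleted, so the deletions were not checked here. Every interval in parentheses is a 95% interval that covers counting error only.

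CREBBP acetylates histones at enhancers and KMT2D methylates them there, and heterozygous loss of either is frequent in lymphomas that arise from GC B cells. In the GC, CB divide and mutate their antigen receptors in the dark zone, and CC present antigen to follicular helper T cells in the light zone before they re-enter the dark zone or leave as memory or plasma cells. The genes have no common pathway. Gsn encodes gelsolin, which severs and caps actin filaments. Cd2 encodes an adhesion and costimulatory receptor of lymphocytes that binds CD48. Lta encodes lymphotoxin alpha, a ligand of the tumor necrosis factor family that is secreted alone or held at the membrane with lymphotoxin beta. Aldh2 encodes the mitochondrial aldehyde dehydrogenase that clears acetaldehyde and other reactive aldehydes. Pld4 encodes an endolysosomal exonuclease of the phospholipase D family that degrades single-stranded nucleic acids which Toll-like receptors would otherwise sense. Tm6sf1 encodes a multispan membrane protein related to TM6SF2, a factor in hepatic lipid export.

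The libraries held 8071 to 12852 barcodes and 33270825 to 39803865 unique molecular identifiers (UMIs), and 0.677 to 0.843% of the barcodes of a library also occurred in another. Of the 9804 GC B cells in the deposited annotation, WT gave 1227, C 2041, K 2583 and CK 3953, and none was listed with more than 2499 genes. The 8 GC B-like markers summed to 2106 CPM for WT, 2126 CPM for C, 2010 CPM for K and 2243 CPM for CK in the annotated cells. In T-like cells they summed to 105 to 152 CPM. Annotated prememory cells stood apart, with these markers at 136 to 226 CPM, close to 135 to 194 CPM in B cells outside the GC (non-GC B-like). Prememory cells held the 8 non-GC B-like markers at 1264 to 1643 CPM, against 3069 to 3641 CPM in non-GC B-like cells. GC B-like cells outside the annotation numbered 858 for WT, 651 for C, 816 for K and 685 for CK, and 844, 642, 787 and 647 of them had at least 2500 genes. The K library stood apart, since 62.4% of its unannotated GC B-like cells lay in cluster 1 and 1.35% in cluster 0, against 6.06 to 8.60% and 38.9 to 54.7% in the other libraries. Median log2 ratios of K over WT over all genes were -0.14 in transitioning cells and -0.16 in unannotated GC B-like cells, so values for K are also given relative to them. The summed level of 5 erythroid markers in transitioning cells was 1046 CPM in C and 3.15 to 4.49 CPM in the other libraries.

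Gsn lies on the plus strand of chromosome 2 from 35256380 to 35307892 (GRCm38, GENCODE annotation), Pld4 on the plus strand of chromosome 12 from 112760655 to 112768990, and Tm6sf1 on the plus strand of chromosome 7 from 81859001 to 81884434. On the minus strand lie Cd2, on chromosome 3 from 101275899 to 101287939, Aldh2, on chromosome 5 from 121566027 to 121593824, and Lta, on chromosome 17 from 35203165 to 35205351. Gm43128 overlaps Gsn, Gm45867 overlaps Tm6sf1 and Mir6974 overlaps Lta on the same strand, where their reads cannot be told apart. Gm42879 overlaps Aldh2, and Gm45014 and Hdgfl3 overlap Tm6sf1, on the opposite strand. In the matrices Gsn is ENSMUSG00000026879, Cd2 ENSMUSG00000027863, Aldh2 ENSMUSG00000029455, Tm6sf1 ENSMUSG00000038623, Lta ENSMUSG00000024402 and Pld4 ENSMUSG00000052160.

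Promoter windows of 300 bases from RefSeq (GRCm38.p6) were found for 3 of the 6 genes, with 3 windows for Gsn and 1 each for Pld4 and Lta. The first Gsn window (chr2:35256109-35256408, plus strand), the Pld4 window (chr12:112760405-112760704, plus strand) and the Lta window (chr17:35205302-35205601, minus strand) are shown 5′ to 3′. Cd2, Aldh2 and Tm6sf1 had no window. Gsn, Pld4 and Lta were called low in transitioning CK cells, as were Cd2 and Aldh2, as given below. Capitals mark TGACG, the half-site of the cAMP response element whose binding protein recruits CREBBP, and GAGGAA, a purine box of the kind bound by ETS factors of B cells, each searched on both strands.
Gsn: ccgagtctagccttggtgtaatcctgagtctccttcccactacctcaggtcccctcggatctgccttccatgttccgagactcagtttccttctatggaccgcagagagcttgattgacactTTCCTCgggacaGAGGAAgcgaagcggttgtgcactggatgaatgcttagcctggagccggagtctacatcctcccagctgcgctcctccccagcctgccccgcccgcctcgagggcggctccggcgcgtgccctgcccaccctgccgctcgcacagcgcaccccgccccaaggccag
Pld4: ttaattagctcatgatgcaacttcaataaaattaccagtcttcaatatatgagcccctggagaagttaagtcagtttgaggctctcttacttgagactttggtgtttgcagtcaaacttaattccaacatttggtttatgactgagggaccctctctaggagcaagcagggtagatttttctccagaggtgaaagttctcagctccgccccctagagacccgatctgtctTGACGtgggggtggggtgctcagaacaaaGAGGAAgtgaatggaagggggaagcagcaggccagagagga
Lta: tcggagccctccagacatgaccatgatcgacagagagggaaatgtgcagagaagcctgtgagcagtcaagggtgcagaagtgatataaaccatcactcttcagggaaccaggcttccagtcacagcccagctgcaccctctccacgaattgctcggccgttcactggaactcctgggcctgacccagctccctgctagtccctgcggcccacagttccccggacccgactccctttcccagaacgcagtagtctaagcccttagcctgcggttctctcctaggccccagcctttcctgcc
The Gsn window held GAGGAA on both strands, the Pld4 window held TGACG and GAGGAA, and the Lta window and the other Gsn windows held neither. TGACG was present in 20.8% and GAGGAA in 28.3% of 32851 promoter windows of this length. The motifs were chosen after the sequences had been seen, and a match describes letters only.

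In CB and CC, the cells that chose the genes, each gene except Tm6sf1 in CB was lowest in CK. The log2 ratio of CK over WT in CB was -1.45 (-1.76 to -1.14) for Gsn, -1.05 (-1.37 to -0.72) for Cd2 and -1.03 (-1.22 to -0.85) for Aldh2, the genes taken from CB. In CC it was -0.84 (-1.06 to -0.62) for Gsn, -0.81 (-1.08 to -0.53) for Tm6sf1, -0.78 (-1.06 to -0.50) for Lta and -0.77 (-1.01 to -0.53) for Pld4. At the edge of the choice, Gimap6 was inside at -0.99 and Ifi27l2a outside at -0.93 in CB. In CC, Pld4 was inside at -0.77 and A530032D15Rik outside at -0.75, next to Aldh2 at -0.74. A log2 ratio of -0.58 or less, a 1.5-fold lower level, was called low here where both libraries together held at least 20 UMIs of a gene. By it 5 of the 6 genes were low in CB, where 12% of all genes were, and 5 in CC, where 5.66% were. Ratios in these cells chose the genes, so both counts are a description. The genes not called low were Tm6sf1 in CB, at 0.44 (-0.19 to 1.12), and Cd2 in CC, at -0.34 (-0.61 to -0.069). With each cell thinned to 2000 UMIs the call was also lost for Cd2 in CB, at -0.54, and for Gsn in CC, at -0.52.

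The WT library shows where each gene was expressed in the control mouse. Among annotated GC subtypes Gsn was highest in CC, at 209 CPM (188 to 231). It followed at 159 CPM (143 to 175) in transitioning cells, 143 CPM (120.5 to 169) in CB and 132 CPM (89.5 to 187) in early CB, and these 3 intervals overlapped. Prememory cells, the annotated subtype taken to be leaving the GC, held it at 9.47 CPM (3.07 to 22.1), below each of these. Plasmacytoid dendritic-like cells were above all of these at 378 CPM (292 to 482). Non-GC B-like cells, at 26.2 CPM (21.1 to 32.0), and T-like cells, at 30.045 CPM (25.7 to 34.9), did not differ beyond counting error.

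Cd2 had its highest level in T-like cells, at 361 CPM (345 to 377). It followed at 250.4 CPM (234 to 267) in non-GC B-like cells and 228 CPM (209 to 248) in transitioning cells, whose intervals overlapped. CB, at 118 CPM (97.7 to 142), and CC, at 116 CPM (101 to 133), overlapped as well and were lower, and prememory cells, at 47.3 CPM (30.6 to 69.9), were lower still. Within the GC of the WT mouse, transitioning cells thus stood above both CB and CC.

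Aldh2 was low in T-like cells. In the GC it stood at 349 CPM (313 to 389) in CB, 313 CPM (291 to 336) in transitioning cells, 304 CPM (279 to 330.3) in CC and 289 CPM (224 to 366) in early CB, and each interval overlapped the next. Prememory cells, at 206 CPM (169 to 249), were below CB, transitioning cells and CC. Non-GC B-like cells were at 243 CPM (228 to 260.1), and T-like cells at 12.6 CPM (9.86 to 15.9). Pld4 had the same contrast between B and T cells, at 205 CPM (191 to 221) in non-GC B-like cells and 5.69 CPM (3.89 to 8.03) in T-like cells. It was highest in plasmacytoid dendritic-like cells, at 815 CPM (685 to 961), and in the GC it was higher in CC, at 171 CPM (152 to 191), than in transitioning cells, at 94.2 CPM (82.5 to 107), or CB, at 52.0 CPM (38.6 to 68.5).

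Tm6sf1 and Lta were higher in CC than in CB of WT and intermediate in transitioning cells, with no overlap between the intervals of CB, transitioning cells and CC. Tm6sf1 was at 131 CPM (115 to 149) in CC, 52.2 CPM (43.6 to 62.1) in transitioning cells and 24.9 CPM (16.0 to 37.1) in CB, and among the named classes it was highest in natural killer-like cells, at 358 CPM (279.9 to 452). Lta was at 128 CPM (112 to 145) in CC, 82.8 CPM (71.8 to 95.001) in transitioning cells and 38.5 CPM (27.1 to 53.0) in CB. Early CB held Lta at 97.8 CPM (62.0 to 147), an interval that overlapped those of both CC and transitioning cells. T-like cells, a known source of lymphotoxin, held it at 16.7 CPM (13.5 to 20.5).

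**Figure D1:**
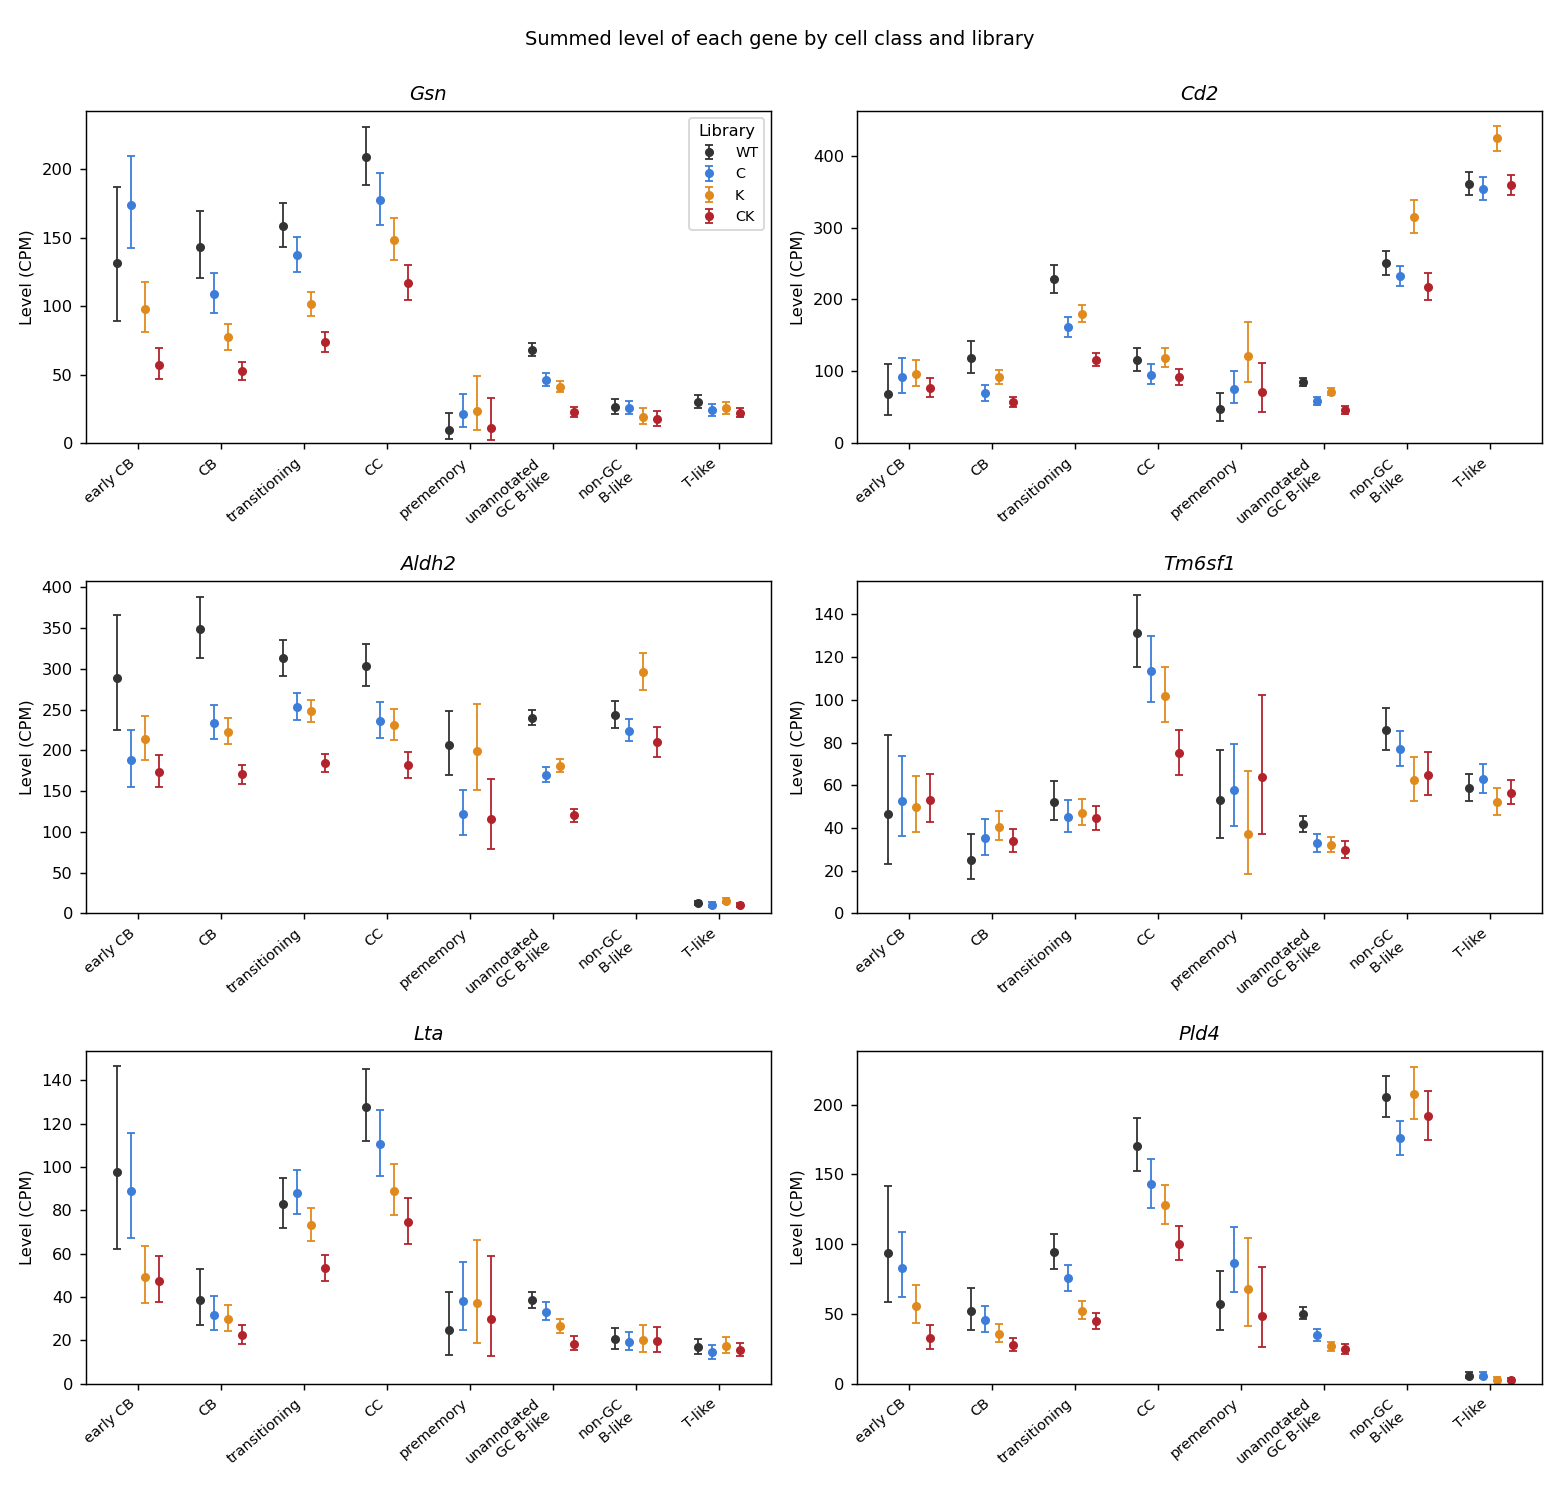
Level of each gene in CPM (vertical axis, linear) by cell class (horizontal axis) in the 4 libraries, each of 1 mouse. Points are summed UMIs over the class total and bars are exact Poisson 95% intervals. Gsn in transitioning cells goes from 159 CPM in WT to 73.5 CPM in CK, while Cd2 in T-like cells is at 361 and 359 CPM.

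Whether the low level extended to cells that did not choose the genes was read first in transitioning cells, which lie between CB and CC and numbered 471 for WT, 760 for C, 1029 for K and 1498 for CK. Gsn was at 159 (143 to 175) for WT, 137 (125 to 150.3) for C, 101 (92.9 to 111) for K and 73.5 CPM (66.7 to 80.9) for CK. The intervals of C and WT overlapped, K was below both, and CK was below K. The log2 ratio of CK over WT was -1.11 (-1.31 to -0.91), the 108th lowest of 9261 genes. The share of these cells with a Gsn UMI was 49.0% for WT, 41.8% for C, 38.6% for K and 22.8% for CK, and it was 26.3% for WT, 25.1% for C, 18.5% for K and 13.2% for CK after each cell was thinned to 2000 UMIs. T-like cells, thinned in the same way from median depths of 3293.5 UMIs for WT and 1978.5 for CK, had shares of 6.39% for WT, 4.58% for C, 5.41% for K and 3.70% for CK. Thinning left out 14, 6, 27 and 78 transitioning cells and 100, 502, 267 and 1627 T-like cells (WT, C, K and CK).

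Pld4 in transitioning cells was at 94.2 (82.5 to 107) for WT, 75.5 (66.6 to 85.4) for C, 52.4 (46.3 to 59.1) for K and 44.8 CPM (39.4 to 50.6) for CK. CK and K overlapped and both were below C and WT. The ratio of CK over WT was -1.07 (-1.34 to -0.81), rank 127 from the lowest. Cd2 was at 228 (209 to 248) for WT, 161 (148 to 176) for C, 180.2 (169 to 192) for K and 116 CPM (108 to 126) for CK, with CK below all other libraries and C and K overlapping between CK and WT. Its ratio of CK over WT was -0.97 (-1.13 to -0.81).

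Aldh2 was again highest in WT and lowest in CK, at 313 (291 to 336) for WT, 253 (237 to 271) for C, 248 (234 to 262) for K and 184 CPM (173 to 196) for CK, and its ratio of CK over WT was -0.76 (-0.90 to -0.63). C and K were indistinguishable by their intervals and lay between WT and CK. Lta was at 82.8 (71.8 to 95.001) for WT, 88.2 (78.5 to 98.8) for C, 73.1 (65.8 to 80.9) for K and 53.2 CPM (47.4 to 59.5) for CK, so that only CK stood apart from the other 3 libraries, and its ratio was -0.64 (-0.90 to -0.37). That call was lost when cells were thinned, weighed equally or joined by deeper cells, at -0.55, -0.55 and -0.45. Tm6sf1 was at 52.2 (43.6 to 62.1) for WT, 45.1 (38.3 to 52.9) for C, 47.1 (41.3 to 53.4) for K and 44.6 CPM (39.3 to 50.4) for CK. All 4 of its intervals overlapped, and its ratio of CK over WT was -0.23 (-0.54 to 0.090), rank 2354.

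In all, 5 of the 6 genes were called low in CK transitioning cells, against 7.48% of the 9261 genes tested. The median ratio of the 6 genes was -0.87, and that of all tested genes 0.012. These cells are not those that chose the genes but come from the same libraries, and the WT library is the reference of every mutant. With the ratio in non-GC B-like cells subtracted the call was left for Cd2 and Pld4, and with that in T-like cells for Gsn and Cd2, 2 of 6 each.

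Markers of other cells were measured beside these ratios. All 8 T-like markers except Bcl11b in WT were detected in transitioning cells, and they summed to 34.3 CPM for WT, 23.0 CPM for C, 43.9 CPM for K and 52.0 CPM for CK. With cells that held any UMI of these markers left out, the ratio of Cd2, the gene highest in T-like cells, was -0.90. The 6 plasmacytoid dendritic-like markers summed to 0.816 CPM for WT, 0.885 CPM for C, 0.197 CPM for K and 1.93 CPM for CK, near 0 in every library, with 4 of them at 0 in WT and 2 in CK. The 8 non-GC B-like markers summed to 260.2 CPM for WT, 254 CPM for C, 159 CPM for K and 199 CPM for CK, lowest in K, and their part in the results for Cd2 and Pld4 was not tested.

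Unannotated GC B-like cells were deeper than annotated cells, with median UMIs of 10922 for WT, 10204 for C, 11363.5 for K and 9530 for CK. They were found by markers and clustered without the 6 genes. Each of the 6 genes was lower in them than in annotated GC B cells of the same library, Gsn by a log2 ratio of -1.20 in WT and -1.64 in CK. Gsn was at 68.2 (63.3 to 73.3) for WT, 46.2 (41.4 to 51.2) for C, 41.1 (37.3 to 45.3) for K and 22.8 CPM (19.5 to 26.6) for CK in them. C and K overlapped between WT above and CK below, and CK over WT was at -1.58 (-1.83 to -1.33). Its level in CK was thus 0.335 times that in WT. That level overlapped those of CK T-like cells, at 22.3 CPM (19.0 to 26.1), and CK non-GC B-like cells, at 17.6 CPM (12.8 to 23.7).

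Lta was at 38.6 (35.0 to 42.5) for WT, 33.1 (29.2 to 37.5) for C, 26.5 (23.4 to 29.8) for K and 18.4 CPM (15.4 to 21.8) for CK, with a ratio of CK over WT of -1.07 (-1.36 to -0.78). Pld4 was at 50.2 (46.1 to 54.7) for WT, 34.8 (30.8 to 39.3) for C, 26.7 (23.6 to 30.044) for K and 24.6 CPM (21.1 to 28.5) for CK, with CK and K overlapping below the others, and a ratio of -1.03 (-1.28 to -0.78). Aldh2 was at 239.9 (231 to 249) for WT, 169.9 (161 to 179) for C, 181 (173 to 189.6) for K and 120.2 CPM (112 to 129) for CK, with a ratio of -0.997 (-1.11 to -0.89). Each of these genes was lowest in CK and highest in WT.

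Cd2 was at 84.9 (79.4 to 90.6) for WT, 58.6 (53.3 to 64.3) for C, 71.7 (66.6 to 77.1) for K and 46.1 CPM (41.3 to 51.3) for CK, and its ratio of CK over WT was -0.88 (-1.07 to -0.70). Tm6sf1 was at 41.8 (38.0 to 45.9) for WT, 32.9 (28.9 to 37.2) for C, 32.1 (28.7 to 35.7) for K and 29.9 CPM (26.0 to 34.1) for CK, with the 3 mutants overlapping below WT and a ratio of -0.48 (-0.72 to -0.25). The genes called low were again Gsn, Cd2, Aldh2, Lta and Pld4, 5 of 6 against 7.58% of 10165 genes, and the interval of Tm6sf1 also lay below 0. With thinning, Lta was not called, at -0.49, and Tm6sf1 was, at -0.66. Of these cells, 38.9% in WT, 51.2% in C and 54.7% in CK were in cluster 0, led by histone genes, and 26.2%, 13.8% and 11.4% in cluster 7, led by Chrna9 and Aknaos.

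**Figure D2:**
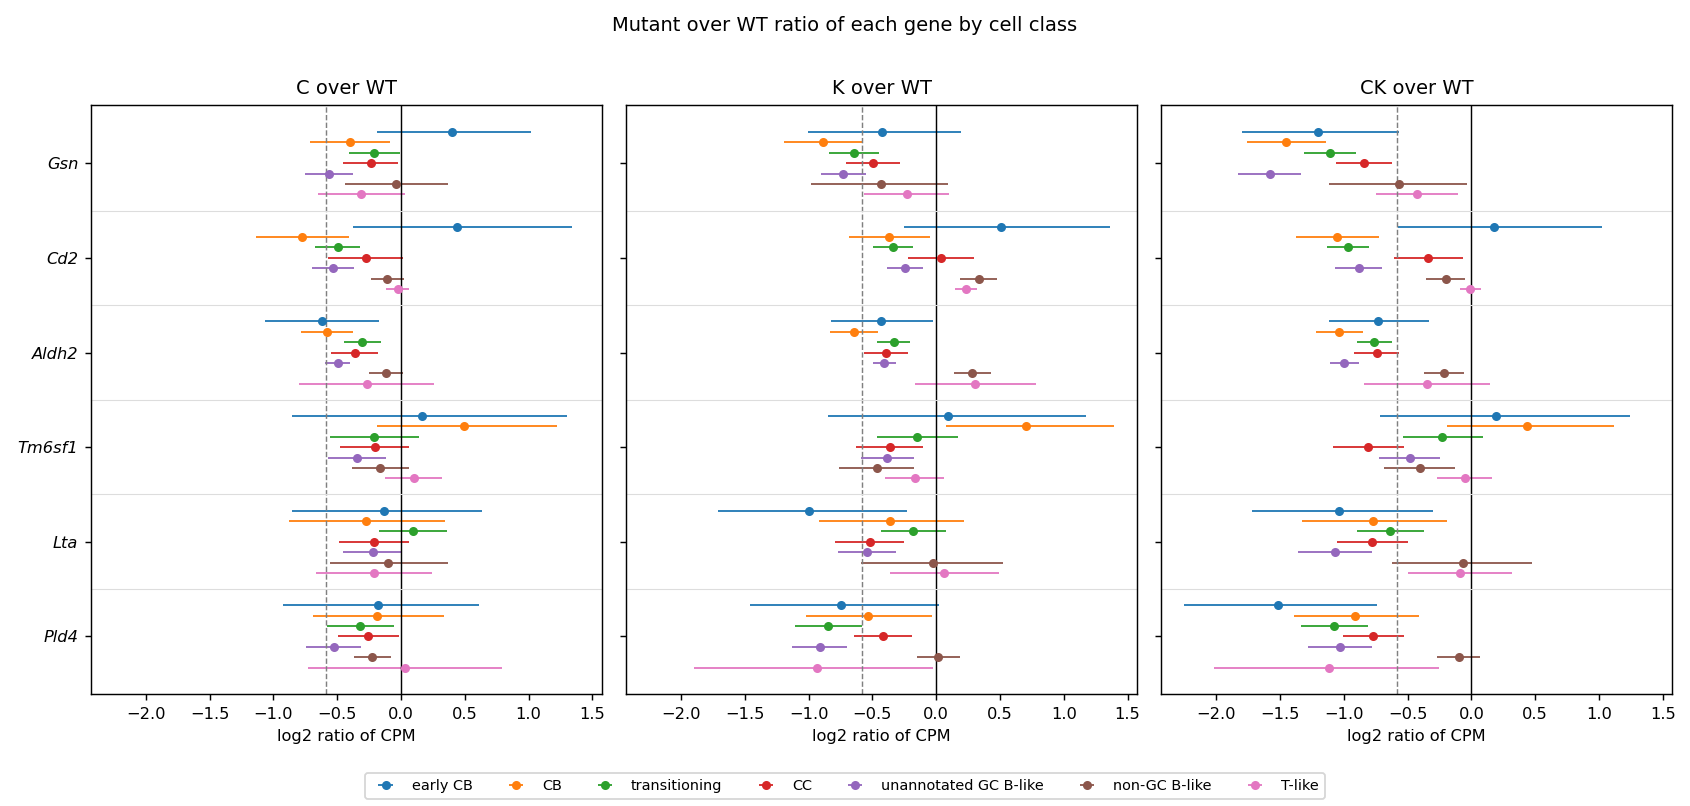
Log2 ratio of CPM of C, K and CK over WT (horizontal axis, one scale for all panels) for each gene, by cell class (colors). Bars are exact 95% intervals for counting error, the solid line is equality and the dashed line is a 1.5-fold lower level. In CK the points of the GC classes lie mostly left of the dashed line, and those of T-like cells lie between -0.43 for Gsn and -0.0077 for Cd2, except Pld4 at -1.12.

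Loss of a single gene was compared with WT in the same cells. In C, none of the 6 genes was called low in transitioning cells, where 5.27% of all genes were, or in unannotated GC B-like cells, where 4.69% were. In the latter cells the 6 genes nonetheless lay near the -0.58 line. Their median ratio of C over WT was -0.51 there, against -0.018 for all genes, and 5 of the 6 intervals lay below 0. The median of the 6 in transitioning cells was -0.26. The lowest value of C in transitioning cells was that of Cd2, at -0.50 (-0.67 to -0.33). Gsn stood at -0.21 (-0.41 to -0.011), Aldh2 at -0.30 (-0.45 to -0.16) and Pld4 at -0.32 (-0.58 to -0.056), all with intervals below 0. The intervals of Lta, at 0.092 (-0.17 to 0.36), and Tm6sf1, at -0.21 (-0.56 to 0.14), included 0.

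In K, Gsn and Pld4 were called low in transitioning cells and again in unannotated GC B-like cells, 2 of 6 genes against 22.7% and 22.2% of all genes, a share that shows how broadly K ratios were low. Relative to the median of all genes, Pld4 alone was called in each, against 17.2% and 15.4%. In transitioning cells Gsn was at -0.65 (-0.84 to -0.45), or -0.51 relative to the median, and Pld4 at -0.85 (-1.11 to -0.59), or -0.71. In unannotated GC B-like cells the relative values were -0.57 for Gsn and -0.75 for Pld4. Cd2 was at -0.20 and Aldh2 at -0.20 relative to the median in transitioning cells, and Lta, at -0.043, and Tm6sf1, at -0.012, were close to it.

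The double heterozygote was then set against each single one, a ratio that does not involve WT. It does involve the CK library, whose low levels in CB and CC chose the genes, so it is not independent of that choice. In transitioning cells, CK over C was -0.90 (-1.09 to -0.71) for Gsn, -0.73 (-0.97 to -0.49) for Lta, -0.76 (-1.01 to -0.50) for Pld4, -0.47 (-0.64 to -0.31) for Cd2 and -0.46 (-0.59 to -0.33) for Aldh2. All of these intervals lay below 0. CK over K was -0.63 (-0.78 to -0.49) for Cd2, -0.46 (-0.65 to -0.28) for Gsn, -0.46 (-0.68 to -0.24) for Lta and -0.43 (-0.55 to -0.31) for Aldh2, again with intervals below 0. The interval of Pld4 included 0, at -0.23 (-0.48 to 0.026), and in unannotated GC B-like cells it did too, at -0.12 (-0.40 to 0.16). The median of CK over K over all genes was 0.13 and 0.098 in these classes, and relative to it, a setting chosen after the data were seen, Pld4 was at -0.36 (-0.61 to -0.10) and -0.21 (-0.49 to 0.064). For Tm6sf1 in transitioning cells both intervals included 0, at -0.018 (-0.31 to 0.28) over C and -0.079 (-0.34 to 0.18) over K. Cd2 over C in unannotated GC B-like cells, at -0.35 (-0.56 to -0.14), kept its interval below 0, and in CB, at -0.28 (-0.58 to 0.024), and CC, at -0.062 (-0.34 to 0.22), it did not. The CK level in CB chose Cd2, so its ratio there is a description.

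The remaining subtypes hold fewer cells. Early CB, cells that enter the dark zone program, numbered 38 for WT, 110 for C, 190 for K and 342 for CK. Pld4 was there at 93.5 (58.6 to 142) for WT, 82.7 (61.8 to 108) for C, 55.9 (43.2 to 71.1) for K and 32.7 CPM (24.7 to 42.3) for CK. Gsn was at 132 (89.5 to 187) for WT, 173 (142 to 209) for C, 98.2 (81.1 to 118) for K and 57.3 CPM (46.6 to 69.7) for CK. For both, CK was lowest and its interval overlapped no other. The ratios of CK over WT were -1.52 (-2.25 to -0.74) for Pld4, -1.20 (-1.79 to -0.57) for Gsn, -1.04 (-1.72 to -0.30) for Lta and -0.73 (-1.12 to -0.33) for Aldh2, so 4 of 6 genes were called low, against 13% of 6822. The intervals of Cd2, at 0.18 (-0.58 to 1.02), and Tm6sf1, at 0.19 (-0.72 to 1.24), included 0. Thinning turned the direction of Lta, to 0.16, and of Cd2, to -0.78.

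Prememory cells numbered 145 for WT, 225 for C, 93 for K and 115 for CK. Aldh2 was at 206 (169 to 249) for WT, 122 (96.5 to 151) for C, 199 (152 to 257) for K and 116 CPM (79.1 to 165) for CK, and only it was called low in CK, at -0.83 (-1.45 to -0.24), 1 of the 5 genes with enough UMIs against 13.7% of 4796. The call was lost with thinning, at -0.46, and relative to T-like cells, at -0.48. Cd2 in these cells was at 47.3 (30.6 to 69.9) for WT, 76.0 (56.4 to 100.3) for C, 122 (85.2 to 168) for K and 71.3 CPM (42.9 to 111) for CK, with every mutant above WT and the intervals of K and WT apart. Pld4, at -0.22 (-1.28 to 0.76), Tm6sf1, at 0.27 (-0.69 to 1.19), and Lta, at 0.29 (-1.19 to 1.67), had wide intervals around 0. Pld4 was called low with equal weight per cell, at -0.67, and without cells that held a T-like marker, at -0.75. Gsn had too few UMIs to compare, with 3 in CK against 5 in WT. Recycling cells, 8 in WT and 49 in CK, allowed a ratio for Aldh2 alone, at -0.47 (-1.42 to 0.59).

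B and T cells outside the GC came from the same libraries, and T cells do not transcribe the Cγ1 region that drives the cre allele. In non-GC B-like cells none of the 6 genes was called low in CK, where 5.81% of 9287 genes were. Gsn was nearest, at -0.57 (-1.12 to -0.037), and stood at 26.2 CPM for WT, 25.5 CPM for C, 19.3 CPM for K and 17.6 CPM for CK. Tm6sf1, at -0.40 (-0.69 to -0.13), Aldh2, at -0.21 (-0.37 to -0.055), and Cd2, at -0.20 (-0.36 to -0.047), also had intervals below 0, but Pld4, at -0.099 (-0.27 to 0.069), and Lta, at -0.068 (-0.62 to 0.47), did not. Cd2 was at 250.4 (234 to 267) for WT, 232 (218 to 246) for C, 315 (293 to 339) for K and 218 CPM (199.8 to 237) for CK in these cells. Aldh2 was at 243 (228 to 260.1) for WT, 224 (211 to 238) for C, 296 (274 to 319) for K and 210.1 CPM (193 to 229) for CK. K was the highest library for both, and CK the lowest.

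In T-like cells Cd2 was at 361 (345 to 377) for WT, 354 (338 to 370.2) for C, 424 (407 to 442) for K and 359 CPM (345 to 373) for CK, and the ratio of CK over WT was -0.0077 (-0.092 to 0.077). Only K stood apart there, above the rest. Tm6sf1 was at -0.053 (-0.27 to 0.16) and Lta at -0.088 (-0.49 to 0.32), both with 0 in the interval, as was Aldh2 at -0.35 (-0.84 to 0.15). Gsn was at 30.045 (25.7 to 34.9) for WT, 24.2 (20.2 to 28.8) for C, 25.6 (21.5 to 30.3) for K and 22.3 CPM (19.0 to 26.1) for CK, a ratio of -0.43 (-0.75 to -0.11). Pld4 was the 1 of 6 genes called low, against 4.78% of 10497, at -1.12 (-2.02 to -0.26). That value rests on few transcripts, 19 in CK against 32 in WT, and on levels of 5.69 CPM for WT, 5.82 CPM for C, 2.97 CPM for K and 2.62 CPM for CK. With either class subtracted as a reference, Gsn in transitioning cells was at -0.54 against non-GC B-like cells and -0.68 against T-like cells. For Pld4 the subtraction of T-like cells gave 0.045, and that of non-GC B-like cells -0.97.

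Among the T-like clusters with at least 50 cells in WT and in CK, Cd2 was highest in cluster 3, led by Sostdc1, Maf and Tnfrsf4, at 589.7 CPM for WT against 593 CPM for CK, and lowest in cluster 5, led by Ptprk and Itm2a, at 211 CPM against 223 CPM. Tm6sf1 was at 12.1 CPM for WT against 12.6 CPM for CK in cluster 3, and at 126 CPM against 109 CPM in cluster 10, led by Gzmm and Ccl5.

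Cells of the same state were compared by cluster, with annotated and unannotated GC B-like cells together. These clusters include the CB and CC that chose the genes, so the values are a description. Aldh2 was below 0 in 6 of 6 clusters, with every interval below 0 and ratios of CK over WT from -0.88 to -0.61. Pld4 was likewise below 0 in all 6, from -1.22 to -0.70. Gsn was below 0 in 6 clusters, in 5 of them with its whole interval, from -1.12 (-1.37 to -0.87) in cluster 0 to -0.56 (-1.22 to 0.081) in cluster 1. Cluster 1, led by Ube2c and Cenpf, was mostly of the K library and held 61 cells of WT and 99 of CK. Cd2 ranged from -0.96 in cluster 8, led by the mitotic genes Cdc20 and Ccnb2, to -0.12 in cluster 1, and Lta from -0.98 in cluster 2, led by Batf and Il4i1, to -0.42. Tm6sf1 was the 1 gene above 0 in a cluster, at 0.057 (-0.25 to 0.37) in cluster 7.

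**Figure D3:**
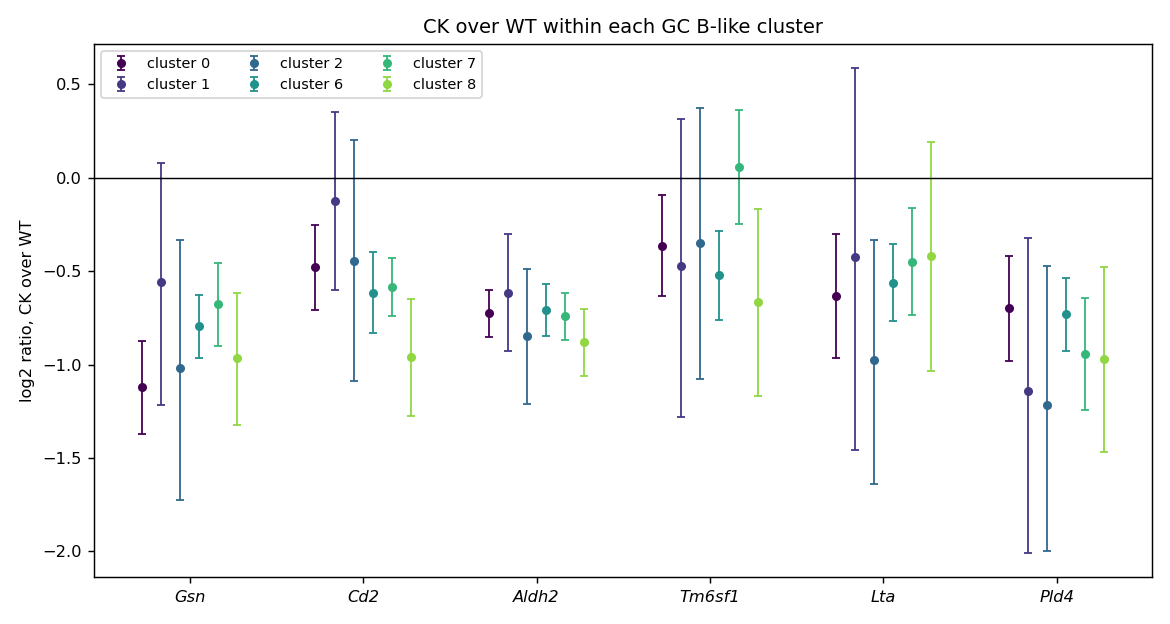
Log2 ratio of CK over WT (vertical axis) for each gene (horizontal axis) within each of the 6 GC B-like clusters (colors), with exact 95% intervals for counting error. Aldh2 and Pld4 lie below 0 with their whole interval in every cluster, and Tm6sf1 in cluster 7 lies at 0.057.

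The deposited pseudotime orders annotated cells from CB toward CC and prememory cells. It was divided into 4 segments that hold 306 or 307 WT cells each. Gsn in WT was at 134 CPM in the first segment, 189 CPM in the second, 187 CPM in the third and 109 CPM in the last. In CK it was at 52.2 CPM, 83.7 CPM, 102 CPM and 109 CPM. The ratio of CK over WT went from -1.36 (-1.58 to -1.13) in the first segment to -0.0043 (-0.32 to 0.32) in the last. Cd2 went from -1.001 (-1.23 to -0.77) to -0.029 (-0.32 to 0.26), and Lta from -0.70 (-1.03 to -0.37) to 0.11 (-0.33 to 0.55). Aldh2 went from -0.87 (-1.01 to -0.73) to -0.48 (-0.69 to -0.26) and Pld4 from -1.22 (-1.52 to -0.91) to -0.52 (-0.82 to -0.22), below 0 in the last segment as well. CB, whose ratios chose Gsn, Cd2 and Aldh2, made up 44.6% of the first segment in WT and 45.6% in CK but 0.327% and 0.336% of the last, so these values over all annotated cells are a description.

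The makeup of the last segment differed between libraries. Prememory cells, where Gsn and Lta are low in WT, made up 41.2% of it for WT, 35.0% for C, 16.2% for K and 11.4% for CK, and their part in the ratios was not tested. Within CC of the last segment, 167 in WT and 642 in CK, the ratio of CK over WT was -0.48 (-0.81 to -0.15) for Gsn, -0.52 (-0.86 to -0.17) for Cd2 and -0.096 (-0.59 to 0.42) for Lta. Ratios in CC chose Gsn, Tm6sf1, Lta and Pld4, so values within CC are a description as well. Within transitioning cells, which did not choose the genes, Gsn was at -1.16 (-1.52 to -0.79) in the first segment, -1.21 (-1.53 to -0.89) in the second and -0.59 (-1.06 to -0.13) in the third. For Aldh2 these were -0.78 (-1.01 to -0.54), -0.83 (-1.06 to -0.60) and -0.65 (-0.95 to -0.34). For both genes the intervals of these segments overlap throughout. Gsn in WT rested on 72 UMIs in the third segment. Tm6sf1 over all annotated cells was at -0.074 (-0.44 to 0.31) in the first segment and lowest, at -1.02 (-1.44 to -0.61), in the third, where WT was at 89.0 CPM and CK at 43.9 CPM. CC, whose ratios chose Tm6sf1, made up 53.4% of the third segment in WT and 34.2% in CK, so that value is a description too.

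**Figure D4:**
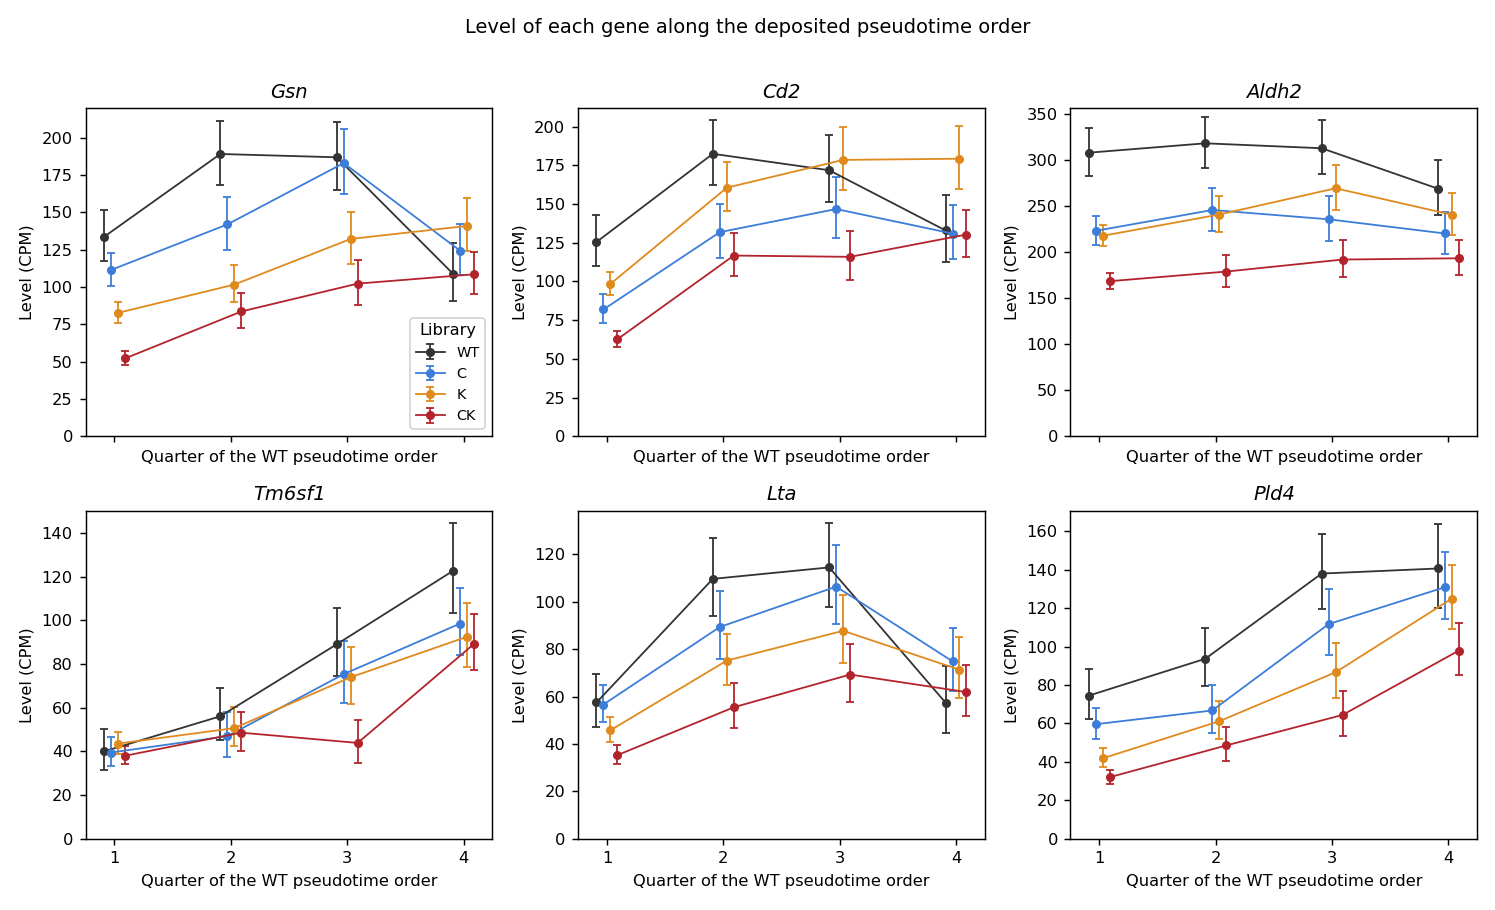
Level of each gene in CPM (vertical axis, linear) in annotated cells by segment of the WT pseudotime order (horizontal axis), in the 4 libraries. Points are summed levels and bars exact Poisson 95% intervals. The WT and CK points of Gsn are 134 and 52.2 CPM in the first segment and both 109 CPM in the last.

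Genes related to each of the 6 were listed by function and read in transitioning cells, where 7.48% of all genes were called low. Around Gsn, 11 of 15 genes of the gelsolin family and of actin turnover had enough UMIs, and none passed the 1.5-fold level in either direction. The most abundant was Tmsb4x, thymosin beta 4, which sequesters actin monomers, at 10580 CPM for WT against 7697 CPM for CK and a ratio of -0.46 (-0.48 to -0.44). Cfl1, cofilin, was at -0.19 (-0.23 to -0.15), and Flii, a gelsolin family member, at 0.15 (-0.047 to 0.36). The median of the 11 was -0.17.

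Around Cd2, 1 of 9 tested receptors, ligands and adaptors of 11 listed was called low, Pstpip1, an adaptor that binds the CD2 tail, at -0.63 (-1.27 to 0.019) with an interval that includes 0. Cd48, the CD2 ligand, was at 105 CPM for WT against 128 CPM for CK, a ratio of 0.29 (0.081 to 0.50), and Slamf6 was at -0.27 (-0.45 to -0.086). For Aldh2, 1 of 9 tested genes of aldehyde removal of 14 listed was called low, Aldh3b1, a dehydrogenase of lipid-derived aldehydes, at 23.7 CPM for WT against 12.5 CPM for CK and -0.92 (-1.45 to -0.40). Adh5, which removes formaldehyde, was at 0.20 (0.0093 to 0.39).

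Of the lymphotoxin genes, Ltb, the partner that holds lymphotoxin alpha at the membrane, was called low, 1 of 7 tested of 12 listed. It was at 639.9 CPM for WT against 423 CPM for CK, a ratio of -0.60 (-0.69 to -0.51), and in T-like cells at -0.26 (-0.33 to -0.19). Tnf, which lies 1158 bases from Lta, was at -0.22 (-0.71 to 0.29) in transitioning cells, -0.021 (-0.51 to 0.47) in CC and -1.40 (-2.20 to -0.56) in CB. The CB value rests on 21 UMIs in WT and 39 in CK, in a class where 12% of all genes were called low. Of the genes around Pld4, Irf7, at -0.81 (-1.21 to -0.41), and Rnaset2a, a lysosomal ribonuclease, at -0.82 (-1.43 to -0.20), were called low, 2 of 7 tested of 12 listed. Unc93b1, the chaperone that brings nucleic acid sensing receptors to endolysosomes, was at 502 CPM for WT against 354 CPM for CK, a ratio of -0.50 (-0.61 to -0.40), and in T-like cells at -0.050 (-0.36 to 0.26). No tested gene of these 5 lists was 1.5-fold higher in CK. Of 3 tested genes of the 4 listed for Tm6sf1 none was called low, and Tmem97, a sterol-related membrane protein, was higher in CK at 1.22 (0.58 to 1.91).

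Nearby expressed genes were read as well. Rab14, beside Gsn, was at -0.011 (-0.19 to 0.17) in transitioning cells, Erp29, beside Aldh2, at 0.20 (0.079 to 0.32), and Btbd1, beside Tm6sf1, at 0.046 (-0.19 to 0.29). Nfkbil1, on the other side of Lta from Tnf, was at -0.21 (-0.51 to 0.11), and Cdca4, beside Pld4, at -0.061 (-0.49 to 0.38). None of these neighbors was called low.

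The gene most like each of the 6 was sought over 38 combinations of cell class and library with at least 50 cells, by Spearman's rho of CPM over 8953 genes. These points share libraries and cell classes, so rho is a description. Pld4 was closest to Unc93b1 (0.953), Rnase6 (0.942) and H2-Oa (0.927). Lta was closest to Cd86 (0.914), Slc31a1 (0.908) and Cd81 (0.869), and Cd2 to Tbc1d10c (0.913), Zdhhc18 (0.876) and Limd2 (0.876). Aldh2 was closest to Rubcn (0.908), Dbnl (0.898) and Haao (0.867), and Tm6sf1 to Vasp (0.883), Rhof (0.875) and Gimap1 (0.821). Gsn had the lowest leading value, with Clec12a (0.837), Psmb9 (0.821) and Tpd52 (0.817). Among the 6 genes themselves, rho ran from -0.32 for Gsn and Tm6sf1 to 0.69 for Aldh2 and Pld4.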

How the data were processed

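Splenic B220+IgD- cells of 4 mice, 1 per genotype, were profiled as 3' single-cell libraries. The deposited matrices hold raw counts of UMIs per gene and barcode, which the authors made with Cell Ranger 3.0 against mm10 per the submitters' processing notes (3.0.2 in the file headers). The authors' annotation, made with Seurat 4.0, gives the subtype of each GC B cell from label transfer and a pseudotime score as a rank, which was deposited for each mutant together with WT and was re-expressed here as a position among WT cells.

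Barcodes with under 8% mitochondrial UMIs were kept. Subtypes were taken from the annotation, and all kept cells were clustered over all libraries (scanpy 1.11.5, 3000 variable genes, 30 components, 15 neighbors, Leiden resolution 1) without immunoglobulin, mitochondrial and the 6 described genes. Clusters took the name of a marker list of which no fewer than 3 genes, and no less than 50%, reached 0.25 of their highest level over clusters. Doublets were called in each library with Scrublet as scanpy provides it, at default settings, and were kept. Their removal was an alternative, and the calls covered 1.39 to 4.02% of annotated cells.

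UMIs were summed per library and class and divided by the class total (CPM). Intervals are exact Poisson for levels, exact conditional binomial for ratios and Clopper-Pearson for shares. With 1 library per genotype no p-value was computed. Ratios and their intervals were run on simulated counts, where the intervals covered 95 to 96.5% of the changes put in. Those counts were drawn from the counting model that the intervals assume, without spread between cells or animals. The run therefore checks the computation only. Named are the 6 genes, the related genes on 6 functional lists, the 3 genes of nearest pattern, the nearest neighbors with at least 50 UMIs and the genes at the edge of the choice. The promoter motifs were chosen after the sequences were seen. Members, lists and marker rules were chosen with earlier results of these data known. Alternatives were thinning, doublet removal, median-ratio scaling, equal weight per cell, other gene totals, cells with T-like markers left out, deeper GC B-like cells added, and ratios relative to non-GC B-like or T-like cells.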

Additional observations from a re-analysis of the deposited data

Results flagged for a closer look

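Ratios of K over WT lay on opposite sides of 0, with intervals that excluded 0, in different cell classes for 3 of the genes, and the differences between classes were not tested because each genotype was 1 library. Cd2 was at 1.36 in prememory cells and -0.37 in CB, a difference of 1.73 on the log2 scale. Aldh2 was at 0.28 in non-GC B-like cells and -0.65 in CB, a difference of 0.93. Tm6sf1 was at 0.70 in CB and -0.46 in non-GC B-like cells, a difference of 1.17, and with deeper cells added its value in CB was -0.16, on the same side of 0. The median of K over WT over all genes was -0.15 in CB, -0.16 in prememory cells and -0.13 in non-GC B-like cells.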

How the results depend on the processing

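With 9 alternatives, 1169 of 1293 recomputed values stayed within the counting interval of the reported value or, for counts, within 1.5 times. Doublet removal, median-ratio scaling, other gene totals and leaving out cells with T-like markers moved no ratio of CK over WT in transitioning cells beyond that interval. Their ratio moved with deeper cells added to -0.83 for Gsn and -0.74 for Cd2, and with thinning to -0.92 for Aldh2 and -0.55 for Tm6sf1. Relative to non-GC B-like cells it was -0.54 for Gsn, -0.77 for Cd2, -0.55 for Aldh2 and 0.18 for Tm6sf1, and relative to T-like cells -0.68 for Gsn, -0.42 for Aldh2 and 0.045 for Pld4. Relative to T-like cells, where Pld4 rests on few UMIs, Pld4 was above 0 also for K in transitioning cells (0.091), in CB (0.40 for K and 0.21 for CK) and in CC (0.52 for K and 0.35 for CK), and Gsn for C in CC (0.076) and transitioning cells (0.10). Against non-GC B-like cells, Tm6sf1 for K in CC was at 0.099. Thinning put Lta in early CB at 0.29 for K and 0.16 for CK, and added cells put Tm6sf1 for K in CB at -0.16. The cause of these shifts was not tested.

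Of the 6 genes, the number called low in CK was 2 in transitioning cells and in CC relative to either reference, and 2 in early CB with deeper cells added or relative to T-like cells. It was 1 in non-GC B-like cells with equal weight per cell or other gene totals, and 2 in T-like cells with thinning. No paired analysis was possible because each genotype was 1 library. Counting limits the rarer classes most, with 8 recycling and 38 early CB cells in WT.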

Other observations

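Cells outside the comparisons also held some of these genes. Tm6sf1 was at 312 CPM in WT and at 319 CPM in CK in an unnamed cluster led by Serpine2 and Fcrl5, with 294 cells of WT and 203 of CK. In natural killer-like cells, 56 in WT and 88 in CK, it was at 358 CPM and 284 CPM, with a log2 ratio of CK over WT of -0.33 (-0.85 to 0.18). Plasmacytoid dendritic-like cells, 34 in WT and 75 in CK, held Pld4 at 815 CPM and 843 CPM, a ratio of 0.050 (-0.26 to 0.37), and Gsn at 378 CPM and 286 CPM, a ratio of -0.40 (-0.90 to 0.10).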
